A study of Mus musculus with 15 samples.

Results

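Ectonucleotidases are enzymes that break down nucleotides outside the cell or in the lumen of the secretory pathway. This set held 10 genes, which were read by symbol from the 53278 rows of the count table: Entpd1 (CD39), Entpd2, Entpd3, Entpd4, Entpd5, Entpd6, Nt5e (CD73), Enpp1, Enpp2 and Alpl. All 10 had a row, and 9 passed the filter on low counts and were tested. The data were bulk RNA-seq counts from the brain cortex of 15 male C57BL/6J mice aged 10 to 20 weeks, with 1 library per mouse and 5 mice per group. Control mice ate control food, the PLX3397 group ate food containing the CSF1R inhibitor PLX3397 for 9 days, and the repopulation group ate that food for 9 days and was then switched back to control food for another 9 days. The dose is not given in the sources used here. PLX3397 acts on every cell that depends on its target kinases and not on microglia alone, and the groups differ in diet history as well as in microglia.

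Extracellular ATP is both a danger signal and a messenger between neurons, glia and vessels. Surface NTPDases such as CD39 remove its outer phosphates in steps to leave AMP, which CD73 and alkaline phosphatase cut to adenosine, and adenosine widens brain vessels and dampens neuronal activity. Enzymes of the ENPP family cut ATP directly to AMP and pyrophosphate, or, in the case of autotaxin, act mainly on a lipid. In the brain, microglia and vascular cells carry CD39, so the series, whose title joins microglia, vessel reactivity and CD39, raises the question of which of these transcripts change with microglia.

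Libraries held 23413551 to 48617851 counts. Levels are given as CPM, a gene's reads per 1000000 reads of the TMM-scaled library total. The microglial gene Csf1r, which encodes the receptor that PLX3397 blocks, ranged from 79.4 to 89.3 CPM in control, from 0.129 to 0.427 CPM on PLX3397 and from 98.9 to 113 CPM after the return to control food. The PLX3397 libraries thus matched their label, while Csf1r is no independent check of the control labels against the repopulation labels. The summed level of 12 microglial markers on PLX3397 was 9.08% of the control mean, and none of the 12 was at 0 throughout that group. The median log2 fold change of the 12 was -6.92, a deeper fall than that of the sum. Csf1r was at 0.254% and P2ry12 at 2.96% of control. Cortical excitatory neuron markers were abundant in every library, at 4680 to 5600 CPM summed over 7 genes. Markers of neighbouring tissue were uneven between libraries: 10 choroid plexus markers summed to 9.95 to 26.8 CPM in 11 libraries, but to 87.9, 222 and 116 CPM in PLX3397 libraries 1, 2 and 3 and to 571 CPM in repopulation library 4. Markers of blood leukocytes stayed below 1 CPM in sum in every library.

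Entpd1 and Alpl were the members called lower on PLX3397 and higher again after repopulation, and RefSeq gives each of them 2 starts. The bases just before those starts are shown for that reason. The 2 Entpd1 starts lie on the plus strand of chromosome 19, and the upstream one is shown from 132 bases before it because the 118 bases farther away overlap an annotated exon of Tctn3 on the other strand. The windows are chr19:40612234-40612365, chr19:40659520-40659769, chr4:137796385-137796634 on the minus strand and chr4:137766476-137766725 on the minus strand, all from RefSeq on GRCm38.p6 and written 5′ to 3′. Capitals mark 2 short motifs wherever they occur on either strand, the core GAGGAA bound by the myeloid factor PU.1 and the GC box GGGCGG.
Entpd1, upstream start: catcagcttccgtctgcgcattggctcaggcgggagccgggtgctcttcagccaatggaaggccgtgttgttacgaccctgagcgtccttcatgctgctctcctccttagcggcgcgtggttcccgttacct
Entpd1, downstream start: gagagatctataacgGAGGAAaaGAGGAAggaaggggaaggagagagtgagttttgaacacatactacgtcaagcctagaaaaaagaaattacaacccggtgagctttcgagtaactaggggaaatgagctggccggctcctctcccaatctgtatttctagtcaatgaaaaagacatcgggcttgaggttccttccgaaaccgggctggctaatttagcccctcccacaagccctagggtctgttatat
Alpl, upstream start: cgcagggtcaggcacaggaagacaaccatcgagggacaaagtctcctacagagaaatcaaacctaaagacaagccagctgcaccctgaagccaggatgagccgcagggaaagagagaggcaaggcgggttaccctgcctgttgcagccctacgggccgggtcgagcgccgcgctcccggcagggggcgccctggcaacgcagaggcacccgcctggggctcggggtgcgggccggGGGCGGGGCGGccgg
Alpl, downstream start: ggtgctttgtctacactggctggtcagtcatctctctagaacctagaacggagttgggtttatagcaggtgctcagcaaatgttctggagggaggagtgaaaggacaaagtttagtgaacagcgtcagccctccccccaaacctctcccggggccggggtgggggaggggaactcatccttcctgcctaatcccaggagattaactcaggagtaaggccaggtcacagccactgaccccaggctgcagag

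Over the full 250 bases before each start, the downstream Entpd1 window held 2 copies of GAGGAA, ending 229 and 221 bases before the start, and the upstream Entpd1 window and both Alpl windows held none. GAGGAA was not particular to Entpd1 among the members: the Entpd5 window held 3 copies and both Entpd6 windows, which start 1 base apart, held 1. The upstream Alpl window held 2 GC boxes, which overlap by 1 base, and the downstream one held none. Of 32851 windows of the same length in the table, 23.3% held GAGGAA and 32.7% held GGGCGG, on either strand. Another motif searched, the hypoxia response core ACGTG (16.6% of windows), was in none of the 4 windows. The upstream Entpd1 window had 18 CpG dinucleotides and the downstream one 8, against a median of 6 over all windows. The counts are per gene, so reads from the 2 Entpd1 starts cannot be told apart, and a motif match is a description of the letters.

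Levels between genes were compared per kilobase of annotated exon, with all annotated exons of a gene merged. In control cortex Enpp2 stood first at 41.6 CPM per kilobase, followed by Entpd6 at 10.1 and Entpd5 at 6.55, and these 3 did not overlap each other or the genes below them. Entpd2 (3.19) and Entpd3 (3.03) overlapped, as did Alpl (2.54) and Entpd1 (2.45). Nt5e, at 0.962 CPM per kilobase, and Enpp1, at 0.644, came last among the tested members. On PLX3397 Entpd1 fell to 1.36 CPM per kilobase, so that it no longer overlapped Alpl and came closest to Nt5e at 1.12, still without overlap. After repopulation Entpd1 (2.44) and Alpl (2.61) overlapped again. The order of genes at close levels depends on the length used. Merged exons span 5580 bases for Entpd1 and 8602 for Nt5e, while their longest transcripts held 4147 and 3946 windows of 50 bases. Without division by length, Entpd1 on PLX3397 (7.09 to 8.43 CPM) lay below Nt5e (8.88 to 10.5 CPM).

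**Figure D1:**
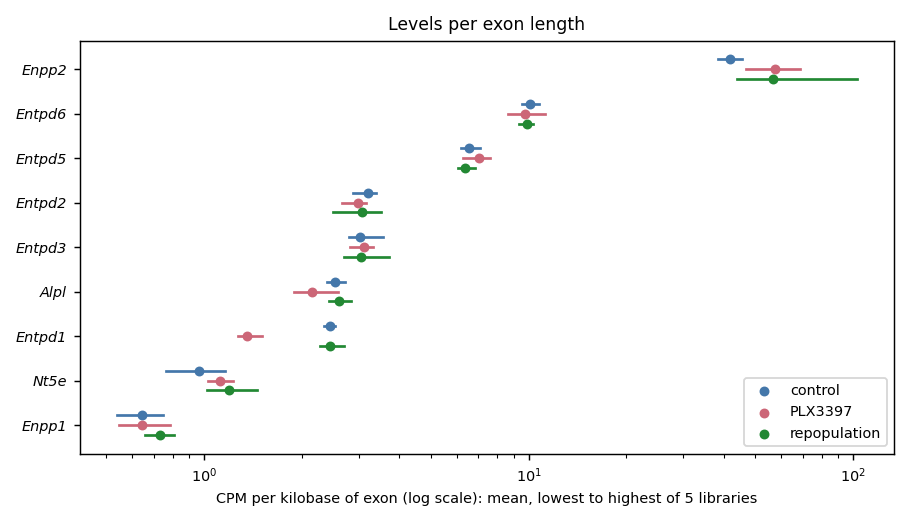
Level of the 9 tested genes per kilobase of exon (CPM per kilobase, log axis). Points are means and lines run from the lowest to the highest of 5 libraries in each group, and Entpd1 on PLX3397 (1.27 to 1.51) stands apart from its control range (2.34 to 2.54).

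Between PLX3397 and control, Entpd1 and Alpl fell, and no member was called higher, although every PLX3397 library had more Enpp2 than every control and that call depended on the fit. These are 2 of the 9 tested members called lower by edgeR's quasi-likelihood test (adjusted p under 0.05 over 18369 genes), against 8.35% of all tested genes, and 0 called higher, against 8.19% (16.5% in either direction). At an unadjusted p under 0.05 the counts were also 2 and 0, and DESeq2 gave 2 and 0 as well. With length and GC trends taken out, the all-gene split changed from 1505 higher and 1533 lower to 1671 and 904. The median log2 fold change was -0.01 over the 9 members and 0.00 over all tested genes. Between repopulation and PLX3397, Entpd1 and Alpl rose (2 of 9, against 7.61% of all genes) and 0 members fell by edgeR, against 8.98% (16.6% in either direction). In that comparison 1 member, Entpd5, was lower at an unadjusted p under 0.05 and DESeq2 called 0. The all-gene split moved from 1398 higher and 1649 lower to 832 and 2854 with the trends taken out, and to 589 and 260 without the 4 libraries of high choroid plexus markers. Between repopulation and control, Nt5e was the 1 member called higher (13.9% of all genes) and 0 were called lower by edgeR (15.2%, and 29.1% in either direction), with 0 lower at an unadjusted p under 0.05 and by DESeq2. There the split moved from 2548 higher and 2797 lower to 1572 and 2619 with the trends taken out. The comparisons share libraries in pairs, so their values are not independent of each other.

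**Figure D2:**
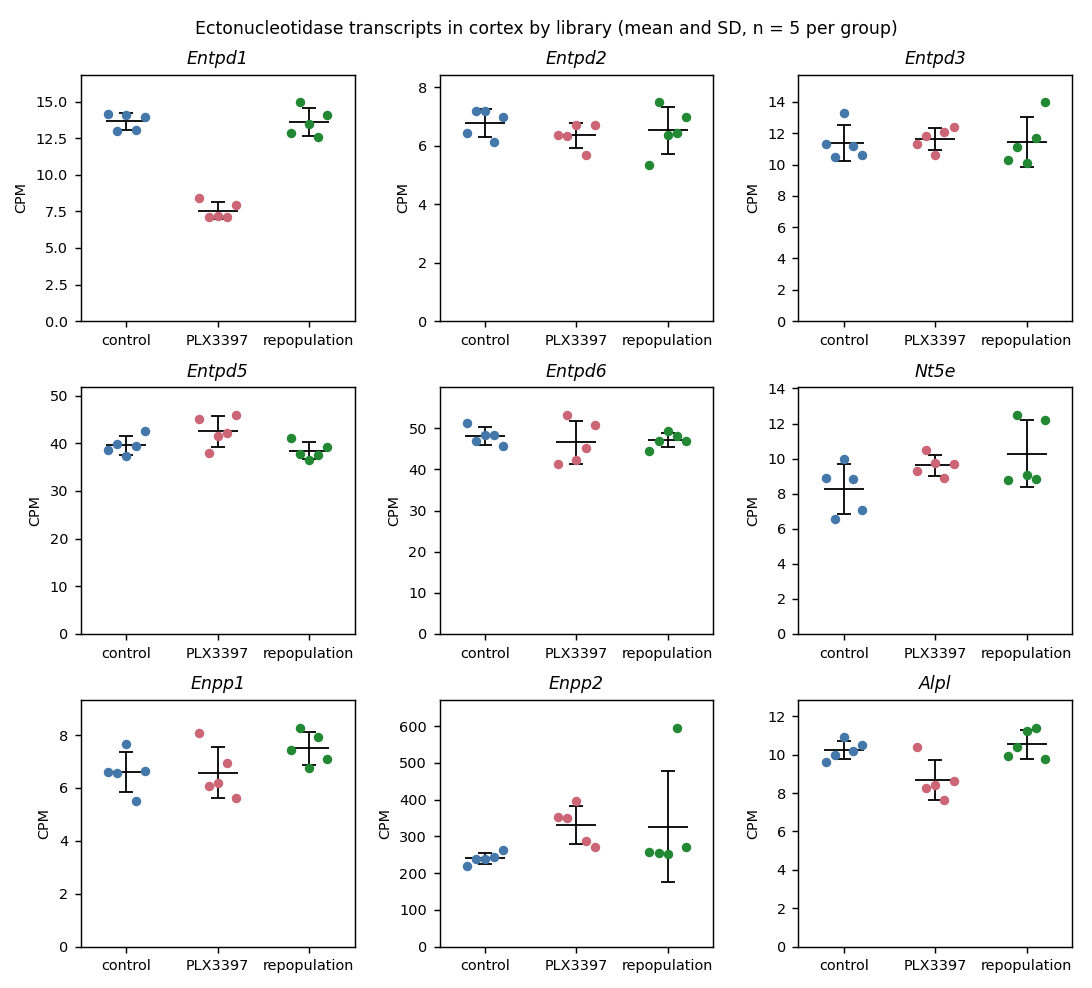
CPM of the 9 tested genes in each library, on axes that start at 0. Points are libraries, the horizontal mark is the mean and the bars are SD (n = 5 per group), and Entpd1 on PLX3397 (7.09 to 8.43 CPM) lies below every control (13 to 14.2 CPM).

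Entpd1 encodes CD39, the surface enzyme that takes ATP and ADP down to AMP. It is annotated at chr19:40612366-40741602 on the plus strand of GRCm38 as a protein-coding gene. Its levels in control mice 1 to 5 were 14.2, 13, 14.1, 13.1 and 14 CPM. On PLX3397 they were 8.43, 7.09, 7.21, 7.14 and 7.96 CPM, and after repopulation 12.9, 15, 13.5, 12.6 and 14.1 CPM. The PLX3397 libraries were all below the lowest of the other 2 groups, while control and repopulation overlapped. The mean fell from 13.7 ± 0.557 to 7.57 ± 0.601 CPM (SD, n = 5 each), 55.3% of control, a log2 fold change of -0.86 (SE 0.071, edgeR adjusted p = 9.44e-10). The log2 fold change between repopulation and PLX3397 was 0.85 (SE 0.071, adjusted p = 1.03e-09). Repopulation against control gave a log2 fold change of -0.01 with a 95% interval of -0.15 to 0.13 (adjusted p = 0.943), at 13.6 ± 0.961 CPM. Both calls held without any single library, at log2 fold changes of -0.90 to -0.84 for the fall and 0.81 to 0.89 for the return.

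The share of Entpd1 that was left on PLX3397 lay between that of microglial and vascular markers and within the range of oligodendrocyte precursor markers. Entpd1 stood at 51.8 to 61.6% of its control mean in the 5 libraries. Summed microglial markers were at 28.9 to 35.7 CPM on PLX3397 against 337 to 375 CPM in control. All 12 of 12 genes were lower, and their median log2 fold change of -6.92 was a deeper fall than that of the sum. Border macrophage markers were at 13.4% of control, with 6 of 6 tested genes lower and Pf4 at 0 counts in all 5 libraries. Summed endothelial markers were at 87.9% (240 to 265 against 276 to 295 CPM, 6 of 12 genes lower and none at 0), and pericyte and smooth muscle markers at 87.5% (206 to 228 against 242 to 265 CPM, 2 of 12 lower and none at 0). Oligodendrocyte precursor markers were at 61.8% (73.3 to 115 against 144 to 178 CPM, 7 of 8 lower and none at 0). Beside these counts, 8.35% of all tested genes were called lower on PLX3397. The part of each cell type in the Entpd1 result was not tested, and in bulk tissue fewer cells of a type cannot be told apart from less RNA per cell. After repopulation the microglial sum reached 109% of control (368 to 416 CPM). Of its 12 markers, 4 were called higher and 1 lower than control, beside 13.9% and 15.2% of all tested genes. Csf1r stood at 124% of control and P2ry12, another of these markers, at 110% (not called, edgeR adjusted p = 0.0783), while Entpd1 stood at 99.5%.

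**Figure D3:**
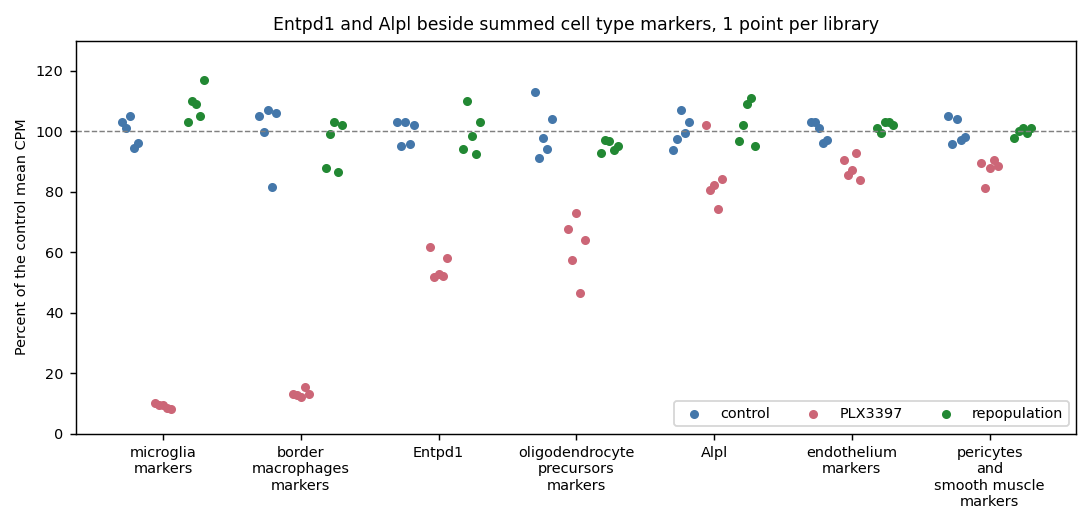
Entpd1, Alpl and the summed CPM of 5 marker lists in each library, as a percent of the control mean. Points are libraries, and on PLX3397 Entpd1 (51.8 to 61.6%) lies above the microglial sum and below the endothelial sum. It lies within the range of the oligodendrocyte precursor sum (46.4 to 73%).

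The fall of Entpd1 altered its proportion to other surface enzymes of this set, which is given here as a description. Per exon length, Entpd1 made up 26.7 to 29.6% of the summed Entpd1, Entpd2 and Entpd3 in the control group, 17.1 to 20.1% under PLX3397 and 26.5 to 30.5% in the repopulation group. The ratio of Entpd1 to Nt5e per length had ranges of 2.17 to 3.06, 1.04 to 1.39 and 1.78 to 2.29 in the same order of groups. The size of this ratio depends on the exon lengths used, which are the same in every group. Its mean was 2.61 ± 0.422 in control and 2.08 ± 0.242 after repopulation (SD, n = 5 each), and these 2 ranges overlapped in part.

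Entpd2 and Entpd3 encode the other surface NTPDases of this set. Entpd2 favours ATP over ADP as its substrate and is found on astrocyte-lineage cells, and Entpd3 is expressed by neurons. Entpd2 spanned 6.13 to 7.20 CPM in the control group, 5.67 to 6.72 CPM under PLX3397 and 5.33 to 7.50 CPM after the switch back, and the 3 groups overlapped. Its log2 fold change on PLX3397 was -0.09 (95% interval -0.28 to 0.10, edgeR adjusted p = 0.555), with -0.06 (-0.25 to 0.13) for repopulation against control and 0.04 (-0.16 to 0.23) against PLX3397. Of the 50-base windows of the longest Entpd2 transcript, 29.9% also occur in transcripts of Npdc1, an overlapping gene on the same strand, so part of its count is uncertain. Entpd3 spanned 10.5 to 13.3, 10.6 to 12.4 and 10.1 to 14 CPM in the control, PLX3397 and repopulation groups. Its log2 fold change was 0.03 on PLX3397 (interval -0.14 to 0.21, adjusted p = 0.840), 0.01 after repopulation (interval -0.17 to 0.18) and -0.03 between repopulation and PLX3397 (interval -0.20 to 0.15). Neither gene was called in any comparison, and changes within these intervals were not detectable at this depth and spread.

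Entpd4, Entpd5 and Entpd6 encode NTPDases of the Golgi, the endoplasmic reticulum and the secretory route, which act on nucleoside diphosphates released when proteins are glycosylated. Entpd4 had 1 read in control library 5, 1 in repopulation library 1 and 0 in the other 13, so it was not tested. All of the 50-base windows of its longest transcript (100%) also occur in transcripts of Entpd4b, a near-identical neighbour that had 0 reads in every library. Reads of these genes cannot be told apart over that sequence, so the listed level of Entpd4 is uncertain.

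Entpd5 spanned 37.3 to 42.7, 37.9 to 46.0 and 36.6 to 41.2 CPM in the control, PLX3397 and repopulation groups. Its log2 fold change was 0.11 on PLX3397 (SE 0.052, edgeR adjusted p = 0.177) and -0.15 between repopulation and PLX3397 (interval -0.25 to -0.04, adjusted p = 0.0565), and neither was called, nor was repopulation against control, at -0.04 (interval -0.15 to 0.07). The value against PLX3397 passed the threshold without control library 1 (adjusted p = 0.0498), control library 5 (0.0449), PLX3397 library 2 (0.0132) or repopulation library 1 (0.0362), and the value against control without PLX3397 library 2 (0.049). Entpd6 lay at 45.6 to 51.3, 41.4 to 53.3 and 44.5 to 49.3 CPM in the 3 groups, with a log2 fold change of -0.05 on PLX3397 (interval -0.17 to 0.07, adjusted p = 0.625), -0.03 after repopulation (interval -0.15 to 0.09) and 0.02 between repopulation and PLX3397 (interval -0.10 to 0.14). Its longest transcript shares 3.66% of its 50-base windows with Gm26681 on the other strand.

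Nt5e encodes CD73, the membrane-anchored enzyme that cuts AMP to adenosine, and lies at chr9:88327197-88372092 on the plus strand. Control mice 1 to 5 had 8.87, 6.57, 10.0, 8.82 and 7.09 CPM, and PLX3397 mice 9.32, 10.5, 9.75, 8.88 and 9.68 CPM. Repopulation mice had 8.80, 12.5, 9.05, 8.85 and 12.2 CPM. Repopulation libraries 2 and 5 were the highest of all 15, and the other 3 lay inside the control range. Nt5e rose between control and repopulation from 8.27 ± 1.41 to 10.3 ± 1.9 CPM, with a log2 fold change of 0.31 (SE 0.12, edgeR adjusted p = 0.0498). The PLX3397 value of 0.22 was not called (interval -0.03 to 0.46), nor was repopulation against PLX3397, at 0.09 (interval -0.15 to 0.34, adjusted p = 0.656).

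The Nt5e call stood just inside the threshold. It was lost without control library 1, 2, 4 or 5, without any 1 of the 5 PLX3397 libraries and without repopulation library 2 or 5, 11 of 15 in all, at adjusted p = 0.055 to 0.156 and log2 fold changes of 0.23 to 0.38 over the 15 fits. It was also lost with only the 2 groups in the fit (adjusted p = 0.10) and with length and GC trends taken out (0.22, adjusted p = 0.189). The same held without the libraries of high choroid plexus markers (0.35, adjusted p = 0.0596), with the replicate block (adjusted p = 0.105) and with the choroid plexus covariate (0.0615). The call was kept by edgeR with DESeq2's scaling (0.0492) or no count filter (0.00335), and by DESeq2 (adjusted p = 0.0358). Repopulation libraries 2 and 5 also had high striatal markers, at 899 and 1060 CPM summed over 8 genes, against 603 to 649 CPM in the other 3 repopulation libraries, and the control library with most Nt5e, number 3, had the highest control sum at 931 CPM. In PLX3397 mice 1 to 5 the sums were 863, 925, 775, 708 and 939 CPM. The library with the second highest Nt5e of that group, number 3, had a sum below those of libraries 1, 2 and 5. Control library 3 and PLX3397 libraries 2 and 5 had larger sums than repopulation library 2 but less Nt5e, at 10, 10.5 and 9.68 against 12.5 CPM. The part of striatal tissue in the Nt5e level was not tested. With the striatal sum as a covariate, chosen after seeing the data, the log2 fold change was 0.30 (adjusted p = 0.00468). By edgeR 0 of the 8 striatal markers were called in this comparison, beside 29.1% of all tested genes in either direction. Of these markers 0 had an unadjusted p under 0.05, DESeq2 called 0, and none was at 0 in any group.

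Alpl encodes tissue-nonspecific alkaline phosphatase, a membrane-anchored enzyme of brain vessels that can cut AMP and pyrophosphate. It lies at chr4:137741733-137796384 on the minus strand. Control mice 1 to 5 had 9.63, 9.98, 10.9, 10.2 and 10.5 CPM, PLX3397 mice 10.4, 8.25, 8.43, 7.62 and 8.65 CPM, and repopulation mice 9.91, 10.4, 11.2, 11.4 and 9.75 CPM. PLX3397 libraries 2 to 5 lay below every library of the other groups, and PLX3397 library 1 lay within both. Alpl fell from 10.3 ± 0.5 to 8.67 ± 1.05 CPM, 84.6% of control (log2 fold change -0.24, SE 0.081, edgeR adjusted p = 0.0428), and rose again to 10.5 ± 0.737 CPM (0.28, adjusted p = 0.0184). Repopulation against control was 0.04 (interval -0.12 to 0.20, adjusted p = 0.756).

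On PLX3397 the vascular marker sums were at 87.9% (endothelium) and 87.5% (pericytes and smooth muscle) of control, beside 84.6% for Alpl. The part of vascular cells in it was not tested. The fall was lost without control library 2, 3, 4 or 5, without PLX3397 library 2, 3, 4 or 5 and without repopulation library 2, at adjusted p = 0.0518 to 0.125, and the return without PLX3397 library 4 (0.0656), repopulation library 3 (0.0503) or repopulation library 4 (0.0569). With length and GC trends taken out the values were -0.11 (adjusted p = 0.366) and 0.19 (adjusted p = 0.0889), and without the 4 libraries of high choroid plexus markers the return was 0.35 (adjusted p = 0.0561).

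**Figure D4:**
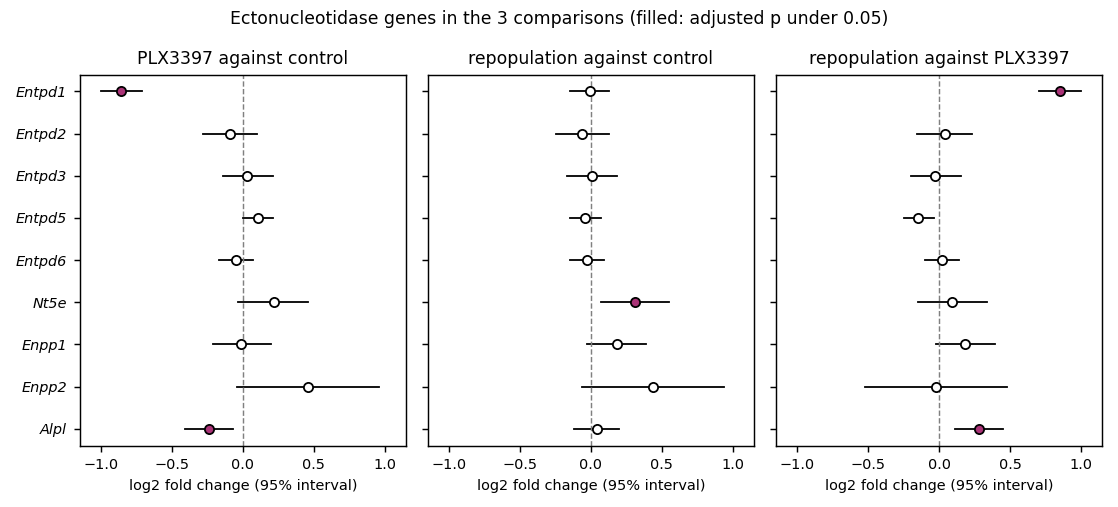
Log2 fold changes with 95% intervals for the 9 tested genes in the 3 comparisons. Filled points have an edgeR adjusted p under 0.05, and Entpd1 at -0.86 and 0.85 is the farthest from 0 in the 2 comparisons with PLX3397.

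Enpp1 cuts extracellular ATP to AMP and pyrophosphate, an inhibitor of mineral deposition, and also cuts the immune messenger cGAMP. Its ranges were 5.51 to 7.68, 5.64 to 8.08 and 6.75 to 8.28 CPM in the control, PLX3397 and repopulation groups. The groups overlapped and no comparison was called. The log2 fold change was -0.01 on PLX3397 (interval -0.21 to 0.20, edgeR adjusted p = 0.982) and 0.18 after repopulation against control (interval -0.03 to 0.39, adjusted p = 0.190), and 0.18 between repopulation and PLX3397 (interval -0.02 to 0.39, adjusted p = 0.238).

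Enpp2 encodes autotaxin, a secreted enzyme of the family that makes the signalling lipid lysophosphatidic acid (LPA), and choroid plexus and oligodendrocytes are known to express it strongly. It lies at chr15:54838901-54952892 on the minus strand. Control mice 1 to 5 had 221, 238, 239, 244 and 262 CPM, PLX3397 mice 352, 350, 397, 287 and 271 CPM, and repopulation mice 257, 255, 253, 596 and 271 CPM. All PLX3397 libraries were above all controls, and repopulation library 4 stood at more than any other library of the study. The log2 fold change on PLX3397 was 0.46 (SE 0.23, interval -0.04 to 0.96), which was not called (edgeR adjusted p = 0.206), and that after repopulation was 0.44 (interval -0.06 to 0.94, adjusted p = 0.180). Without repopulation library 4 the PLX3397 value of 0.46 was called (adjusted p = 0.00423), repopulation against PLX3397 changed from -0.02 to -0.36 (adjusted p = 0.0298), and repopulation against control changed to 0.11 (adjusted p = 0.467). With only the 2 compared groups in the fit, the PLX3397 value was 0.47 (adjusted p = 0.0156).

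The libraries with most Enpp2 were those with most choroid plexus markers. Ttr, the transthyretin gene that defines choroid plexus, was at 69.8, 179, 97.8, 8.57 and 4.39 CPM in PLX3397 mice 1 to 5, at 480 CPM in repopulation library 4 and at 1.52 to 14.7 CPM in the other 9. None of the 10 markers was at 0 in any group, and 0 of the 9 tested were called on PLX3397 by edgeR, 0 at an unadjusted p under 0.05 and 0 by DESeq2 (log2 fold change of Ttr 3.40, interval -0.30 to 7.10). With the summed marker level as a covariate, Enpp2 on PLX3397 had a log2 fold change of 0.12 (adjusted p = 0.428). Without the 4 libraries above the highest control sum of 26.8 CPM, left out after seeing the data, it was 0.21 (adjusted p = 0.0083), with 2 PLX3397 libraries left. In those 2 libraries, numbers 4 and 5, Enpp2 stood at 287 and 271 CPM, above the highest control of 262 CPM. Summed oligodendrocyte markers were at 5710 to 6950 CPM on PLX3397 against 5340 to 5630 CPM in control, with 9 of 11 higher and none at 0. Their part in the Enpp2 level was not tested. Of all tested genes, 8.19% were called higher and 8.35% lower on PLX3397.

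**Figure D5:**
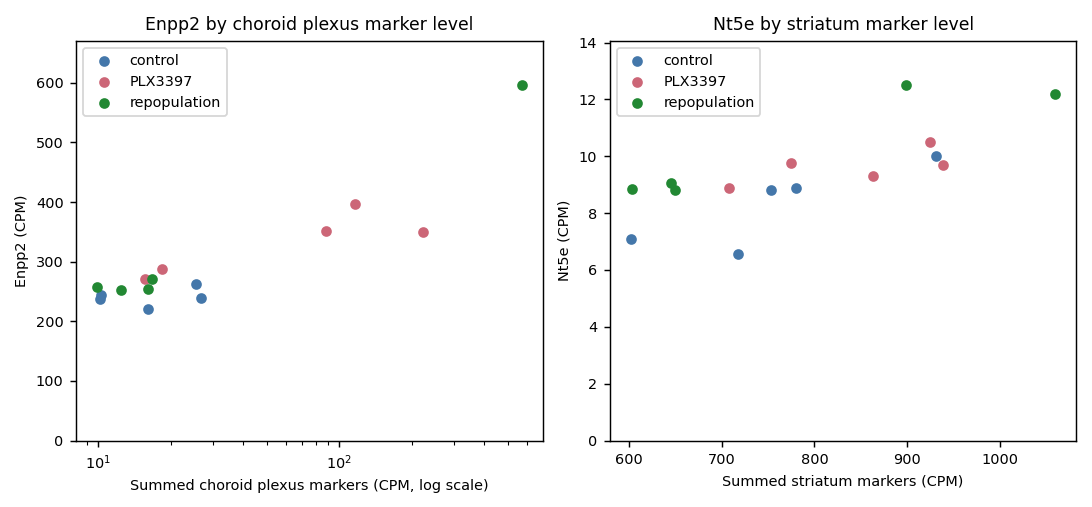
Enpp2 against summed choroid plexus markers (log axis) and Nt5e against summed striatal markers, both in CPM, 1 point per library. Repopulation library 4 (571 and 596 CPM) and PLX3397 libraries 1 to 3 lie to the upper right in the first panel, and repopulation libraries 2 and 5 in the second.

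Around these enzymes, 43 further genes of nucleotide, pyrophosphate and LPA handling were listed, of which 41 were in the table and 32 were tested. On PLX3397 2 rose and 2 fell by edgeR, with shares of all tested genes of 8.19% and 8.35%. DESeq2 gave 3 higher and 2 lower, and at an unadjusted p under 0.05 there were 3 higher and 6 lower. Enpp5, a family member of unclear substrate, rose from 280 ± 9.03 to 305 ± 6.23 CPM (log2 fold change 0.12, edgeR adjusted p = 0.00604), and Slc20a2, a phosphate importer, from 49.3 ± 1.48 to 54.9 ± 1.72 CPM (0.15, adjusted p = 0.0131). The LPA receptor gene Lpar5 fell from 0.418 ± 0.0963 to 0.141 ± 0.0863 CPM (-1.47, adjusted p = 0.00823), and the nucleotidase gene Nt5c3b from 30.3 ± 1.18 to 27.1 ± 0.984 CPM (-0.16, adjusted p = 0.0258). Of the 2 tested genes listed as other NTPDases or related nucleotidases, Entpd7 and Cant1, 0 were called in any comparison by edgeR or DESeq2. At an unadjusted p under 0.05 the count was also 0.

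After repopulation, against control, 0 of the 32 rose and 6 fell by edgeR, and DESeq2 gave the same counts. Over all tested genes the shares were 13.9% higher and 15.2% lower, so the number that fell was near the background. At an unadjusted p under 0.05, 2 were higher and 7 lower. Of the 6 that fell, 4 were among the 6 tested nucleotidases that act inside the cell, beside 15.2% of all tested genes, and no test of that list was made. Nt5m, which encodes the mitochondrial enzyme, stood at 21.1 ± 1.3 against 25.8 ± 2.81 CPM (log2 fold change -0.30, edgeR adjusted p = 0.0015), Nt5c3b at 25.2 ± 1.77 CPM (-0.27, adjusted p = 0.000251) and Nt5c3, which acts on pyrimidine nucleotides, at 29.9 ± 1.94 against 35.4 ± 1.87 CPM (-0.24, adjusted p = 0.000935). The NAD-consuming ectoenzyme gene Cd38 fell as well (-0.49, adjusted p = 0.0339), and so did Panx1, a channel through which cells release ATP (-0.18, adjusted p = 0.0292). Between PLX3397 and repopulation, 2 of the 32 rose and 2 fell by edgeR, beside 7.61% and 8.98% of all tested genes, and DESeq2 gave 2 and 3. Lpar5 rose to 0.679 ± 0.164 CPM (2.20, edgeR adjusted p = 7.84e-05), as did the transporter gene Abcc6 (0.49, adjusted p = 0.0278). Nt5c3 (-0.27, adjusted p = 0.000555) and the LPA receptor gene Lpar1 (-0.36, adjusted p = 0.0132) fell. Lpar5 at these levels rests on few reads.

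The genes whose libraries most resembled those of each called member were found by the root mean square difference of log2 CPM, less the control mean, over 15 libraries and 13433 candidate genes. For Entpd1 they were Ctsh, a lysosomal cathepsin (0.144), Itgb5, an integrin subunit (0.145), and Cspg4, the NG2 proteoglycan of oligodendrocyte precursors and pericytes (0.148). Ctsh stood at 7.41 ± 0.951, 4.13 ± 0.22 and 7.73 ± 0.673 CPM in control, PLX3397 and repopulation (SD, n = 5 each). Itgb5 stood at 41.4 ± 2.58, 21.2 ± 2.36 and 44.6 ± 2.27 CPM, and Cspg4 at 24 ± 1.9, 12.9 ± 1.43 and 27.2 ± 1.02 CPM. For Alpl they were Bcl9l (0.082), Mtss1l (0.0833) and Heg1, a receptor of endothelial junctions (0.0904), with PLX3397 log2 fold changes of -0.19, -0.22 and -0.18. For Nt5e they were the potassium channel gene Kcna4 (0.126), Mpp7 (0.134) and Tbc1d8 (0.138), with repopulation log2 fold changes against control of 0.31, 0.35 and 0.28. Mpp7 was not called there (edgeR adjusted p = 0.0531). All of these genes were picked for likeness in the same libraries, so their like fold changes follow from the choice.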

How the data were processed

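Raw read counts per gene symbol were deposited by the authors for 15 cortex libraries. The submitters' processing notes name STAR, FastQC, MultiQC, DESeq and DESeq2 and the mm10 build, with neither roles nor versions. How reads were assigned to genes, from which annotation and whether by strand is not given in the sources used here. Each of the 15 columns carried a name that pointed to 1 labelled mouse. Libraries of a group differed by more than sampling noise (chi-square per degree of freedom 2.53 to 9.95 over genes with at least 20 counts in a pair), and 0 pairs were identical.

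The main test was that of edgeR 4.0.16, run in R 4.3.3 (filterByExpr, TMM, quasi-likelihood F test with robust dispersion, all 15 libraries in 1 fit, no covariate). The Benjamini-Hochberg adjustment ran over 18369 genes, with a threshold of 0.05. Intervals are 95% intervals of the fit. The script was tested on simulated counts. DESeq2 1.42.0 served as an alternative, with other scaling, no count filter, the 2 compared groups alone, a replicate block, length and GC trends, marker covariates and each library left out. Lengths, GC content and coordinates came from GENCODE M21 on GRCm38 (97.6% of tested genes), promoter windows from RefSeq on GRCm38.p6, which held 8 of the 10 genes (not Entpd4 and Enpp2). The replicate numbers were not taken as pairs, since the labels tie no number to a shared animal or batch.

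The 9 tested members are reported in every comparison, and Entpd4, with 2 reads in all, by its counts. Further genes follow fixed lists, of which up to 3 called genes per list and comparison with the smallest adjusted p are named, and the 3 genes most alike to each called member, at a mean CPM of at least 1 without predicted genes, with 0.1 CPM added before the log. Members, lists and rules were chosen with earlier results of these data known.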

Additional observations from a re-analysis of the deposited data

Results flagged for a closer look

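In repopulation library 4, Enpp2 stood at 596 CPM, far from the 253 to 271 CPM of the other 4 libraries of that group. The same library had the highest summed choroid plexus markers of the study, at 571 CPM.

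In control library 3, Entpd3 stood at 13.3 CPM, apart from the 10.5 to 11.3 CPM of the other 4 controls. These were 2 of 27 groups of 5 values examined for a single distant library, and chance alone marks about 1 in 20 such groups.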

How the results depend on the processing

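Entpd1 kept its direction and its call in both comparisons with PLX3397 under every alternative run (log2 fold changes -0.89 to -0.83 and 0.81 to 0.88 outside the fits that leave out 1 library). Against control after repopulation it was not called in any fit, and its value of -0.01 became -0.07 with the length and GC trends taken out (adjusted p = 0.507), 0.00 with the choroid plexus covariate, 0.01 without the 4 libraries of high choroid plexus markers and -0.05 to 0.02 without single libraries. The counts of members called were small, so single genes moved them. On PLX3397 the higher count became 1 with only the 2 groups compared and without the 4 libraries, and the lower count became 1 with the 2 groups, the replicate block, the length and GC trends and the striatum covariate. After repopulation against control the higher count became 0 with the 2 groups, the replicate block, the trends, the choroid plexus covariate and without the 4 libraries. Against PLX3397 the higher count became 1 with the trends and without the 4 libraries, and the lower count became 1, through Entpd5, with no count filter, the replicate block, the trends and either covariate (adjusted p = 0.00736 to 0.0478). Without single libraries these counts ran from 0 to 1 higher and 1 to 2 lower on PLX3397, 0 to 1 higher and 0 to 0 lower after repopulation, and 1 to 2 higher and 0 to 1 lower against PLX3397.

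Uncalled members near 0 changed sign. Entpd3 was 0.00 with the replicate block and -0.01 without the 4 libraries (repopulation against control), and -0.02 and 0.03 with the striatum covariate on PLX3397 and against PLX3397. With the trends, Entpd2 was 0.06 on PLX3397 and 0.07 after repopulation, and Entpd6 0.02 and, against PLX3397, -0.06, which was -0.03 without the 4 libraries. Enpp2 against PLX3397 was 0.08 with the choroid plexus covariate. Without single libraries the ranges were -0.09 to 0.05 for Enpp1 on PLX3397, -0.11 to 0.01 for Entpd2 and -0.08 to 0.06 for Entpd3 after repopulation, and, against PLX3397, -0.02 to 0.10 for Entpd2, -0.11 to 0.01 for Entpd3, -0.02 to 0.07 for Entpd6 and -0.36 to 0.06 for Enpp2. The cause was not tested. Summing Entpd4 and Entpd4b gave 2 reads in all, and no value.

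With the replicate block, Alpl on PLX3397 (-0.24, adjusted p = 0.0668) and Nt5e after repopulation (0.30, adjusted p = 0.105) were no longer called and Entpd5 against PLX3397 was (-0.14, adjusted p = 0.0433). Same-numbered mice of different groups had a median correlation of deviations of -0.0132 over 15 pairs, 1 above 0.1. Mice of different numbers had a median of 0.0083 over 60 pairs, 10 above 0.1, and 1 of 15 libraries correlated best with its own number. A shared day or batch that leaves little trace would not be seen this way, so these values cannot decide whether the numbers pair the samples. Genes near 10 CPM rest on few reads (185 to 691 per library for Entpd1), which limits the detection of small changes.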

Other observations

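The spread between mice, as a coefficient of variation, was set beside the part that read counting alone would give. For Entpd1 it was 4.07% in control and 7.95% on PLX3397, against 4.96% and 6.96% from counting, and for Alpl it was 4.88% in control and 12.1% on PLX3397, against 5.70% and 6.52% from counting. Nt5e varied by 17.1% in control and 18.5% after repopulation but by 6.37% on PLX3397, against 5.92 to 6.46% from counting. Enpp2 varied by 6.13%, 15.6% and 46.2% in control, PLX3397 and repopulation, against 1.07 to 1.18% from counting. Entpd6 varied by 11.3% on PLX3397 against 4.43% in control and 3.76% after repopulation.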
